A study of Mus musculus with 18 samples.

Results

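The chemokines of the ventricle are described here as 10 genes: Ccl2, Ccl7, Ccl8, Ccl6, Ccl9, Cxcl1, Cxcl9, Cxcl12, Cxcl14 and Cx3cl1. Their members are the 21 probe sets that the platform annotation assigns to one of these symbols alone, out of 45037 probe sets tested, of which 34945 carry 1 gene and together represent 18193 genes. Ccl2, Ccl7 and Ccl8 have 1 probe set each, Ccl6, Ccl9, Cxcl9 and Cxcl14 have 2, Cxcl1 and Cxcl12 have 3, and Cx3cl1 has 4. Left ventricular RNA of wild-type female C57Bl/6 mice aged 3 to 4 months was hybridised to 18 Affymetrix arrays, 3 in each of 6 groups. Mice of the 7EX and 21EX groups ran voluntarily on wheels for 7 and 21 days. MP (mid-pregnancy) hearts were taken on gestation day 11, LP (late pregnancy) hearts on days 18 to 19 and 0PP (immediate postpartum) hearts within 12 hours of birth. The controls, NP/Sed, were sedentary virgin females in diestrus. Every array was hybridised with RNA pooled evenly across 2 to 3 hearts, after the atria, right ventricle and vessels had been trimmed away. The p-values therefore measure the spread between pools and not between mice. Values are the deposited RMA signals on the log2 scale, and levels are not compared between probe sets.

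Chemokines are small secreted proteins that guide leukocytes along concentration gradients through G protein-coupled receptors. CC chemokines such as Ccl2 and Ccl7 mainly attract monocytes, the CXC chemokine Cxcl1 attracts neutrophils, and Cxcl9 attracts T and natural killer cells after induction by interferon-gamma. Cxcl12 and Cxcl14 are made constitutively in many tissues, and Cx3cl1 is anchored in the membrane of endothelial and other cells until it is shed. In the heart such signals are best known from infarction and pressure overload, where they bring in blood monocytes and neutrophils, while the unstressed ventricle holds resident macrophages.

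The genes lie mostly in chemokine clusters in the mouse assembly GRCm38.p6. On chromosome 11, Ccl2 and Ccl7 are neighbours, and Ccl8 follows after Ccl11 and Ccl12. Elsewhere on chromosome 11, Ccl9 and Ccl6 lie side by side between Ccl5 and Ccl3. Cxcl1 lies between Cxcl15 and Cxcl2 on chromosome 5, Cxcl9 is separated from Cxcl10 by Art3 on the same chromosome, and Cx3cl1 lies between Ccl22 and Ccl17 on chromosome 8. Cxcl12 on chromosome 6 and Cxcl14 on chromosome 13 have no chemokine beside them.

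The 250 bases upstream of the RefSeq start (GRCm38.p6) are shown for Cxcl1, Ccl9 and Ccl6, the genes that passed the test across all 6 groups, written 5′ to 3′ on the strand of the gene. Capitals mark matches to the NF-κB (kappa B) consensus of 10 letters on either strand.
Cxcl1 (chr5:90890995-90891244, plus strand): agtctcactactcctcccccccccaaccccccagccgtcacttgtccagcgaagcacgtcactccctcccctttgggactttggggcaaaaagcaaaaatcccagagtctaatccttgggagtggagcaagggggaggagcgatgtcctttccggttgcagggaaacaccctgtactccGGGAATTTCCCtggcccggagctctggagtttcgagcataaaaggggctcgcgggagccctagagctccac
Ccl9 (chr11:83578637-83578886, minus strand): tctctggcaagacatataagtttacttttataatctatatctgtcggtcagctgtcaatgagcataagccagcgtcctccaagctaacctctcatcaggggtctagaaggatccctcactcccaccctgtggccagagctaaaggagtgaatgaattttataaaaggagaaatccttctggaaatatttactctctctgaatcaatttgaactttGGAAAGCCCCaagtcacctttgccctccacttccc
Ccl6 (chr11:83593088-83593337, minus strand): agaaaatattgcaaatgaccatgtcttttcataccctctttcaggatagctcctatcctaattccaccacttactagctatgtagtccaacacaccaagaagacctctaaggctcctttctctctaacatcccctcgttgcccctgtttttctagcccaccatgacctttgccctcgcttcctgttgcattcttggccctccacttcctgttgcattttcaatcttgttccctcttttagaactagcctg
The match in Cxcl1 reads on both strands, as 2 overlapping copies 71 to 62 and 70 to 61 bases before the start, and the match in Ccl9 lies 35 to 26 bases before the start on the opposite strand. Ccl6 had none, nor did Ccl8, Cxcl9, Cxcl12, Cxcl14 and Cx3cl1. Of the 8 chemokines with a window, 2 hold a match, against 3.90% of all 32851 windows of this length. The match is a description of the letters and not a site of binding.

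One array stood apart. LP-3 had the highest of all 18 values at 9 of the 21 chemokine probe sets, and at 6 of the 10 genes by the probe set of highest mean, against 7.27% of all probe sets tested. It lay at least 0.5 above the mean of LP-1 and LP-2 (log2) at 12 of 21 chemokine probe sets, against 1.77% of all probe sets. The gap was 2.13 at Ccl7, 1.85 at Ccl2, 1.39 at the brighter probe set of Cxcl9 and 1.23 at that of Ccl6, and -0.08 and -0.02 at those of Cxcl12 and Cx3cl1. Averaged over the 10 genes, LP-3 lay 1.09 above the NP/Sed mean, against 0.24 in LP-1, 0.12 in LP-2 and 0.45 to 0.63 in the 0PP arrays. LP-3 was singled out after its values were seen, and results that rest on it are given with and without it. Adjusted p values without it are descriptions, since its removal was chosen from these same values.

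LP-3 was also the highest array for sets of genes that are not chemokines. The mean of 16 interferon-gamma response genes was 8.92 in LP-3, against 7.78 to 8.40 in the other 17 arrays (log2). Among these genes, named here after their values were seen, the interferon-inducible GTPases Igtp and Iigp1 reached 11.27 and 12.79 in LP-3, against 7.38 to 9.40 and 9.30 to 10.94 elsewhere. Not all of the list was high in LP-3. Cd74 (9.175), H2-Aa (9.32), H2-Ab1 (8.08) and Ciita (4.26), also named after their values were seen, were within the range of the other arrays. Ifng itself was dim throughout, at 3.18 in LP-3 and 2.97 to 3.39 elsewhere. The mean of 4 blood monocyte markers was 5.40 in LP-3, against 4.34 to 4.83 elsewhere, and that of 8 neutrophil markers 5.34, against 4.80 to 5.25. Both means rested on part of their lists, by genes named after their values were seen. Of the blood monocyte markers, Plac8 and Chil3 were highest in LP-3, while Ccr2 (5.803) and F10 (4.464) were within the range elsewhere. Of the neutrophil markers, S100a8 and, more narrowly, Csf3r and Mmp8 were highest in LP-3. S100a9 (6.528) was level with 0PP-1, and Ngp, Camp, Mpo and Elane were within the range elsewhere. The 11 monocyte and macrophage markers (8.21, against 7.65 to 8.25) and the 8 ventricular cardiomyocyte markers (13.32, against 13.30 to 13.42) were within the range of the other arrays. The part of these genes in the chemokine values of LP-3 was not tested.

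**Figure D1:**
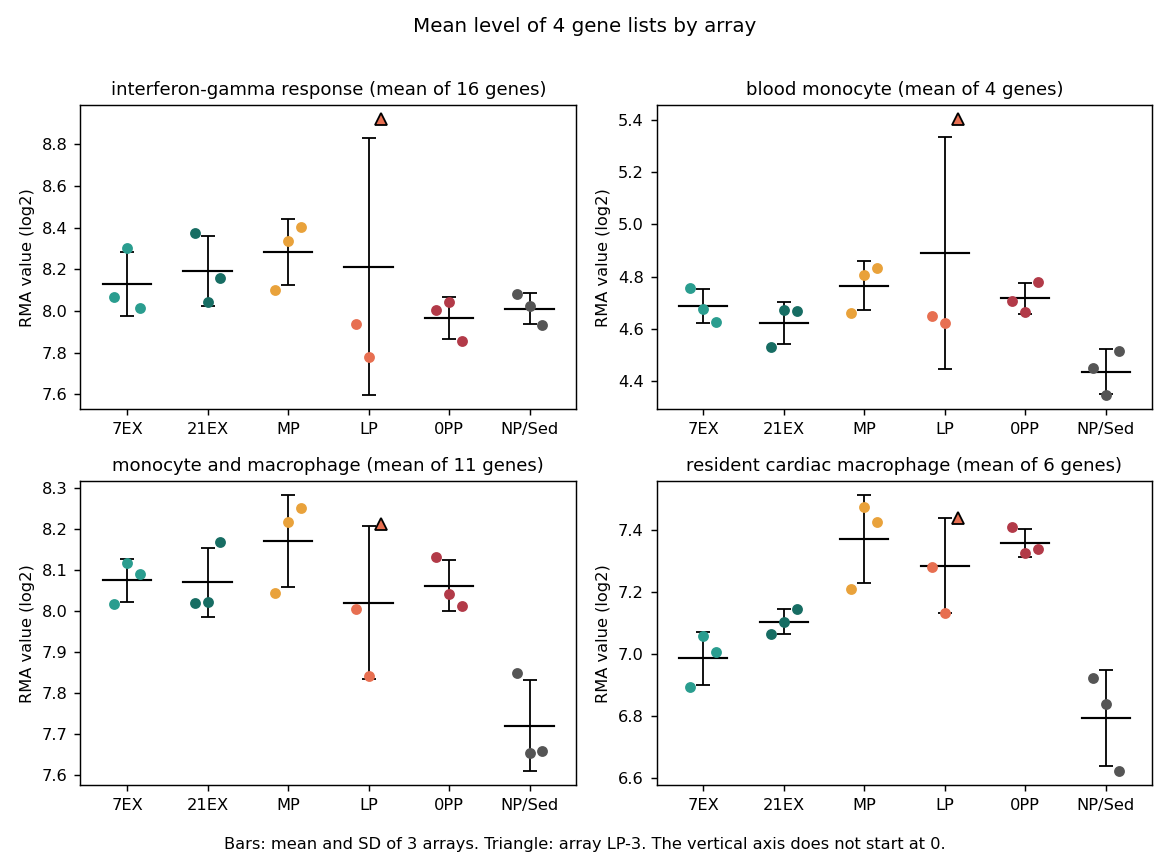
Mean RMA value (log2, vertical axis) of 4 gene lists on each of the 18 arrays by group (horizontal axis). Points are arrays, bars the mean and SD of 3 arrays, and the triangle is LP-3, which stands at 8.92 for the interferon-gamma response and 5.40 for blood monocyte markers and within the range of the other arrays for the 2 macrophage lists.

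Of the 21 chemokine probe sets, 6 passed the moderated F-test across the 6 groups at an adjusted p under 0.05, the threshold for passing throughout, against 5.83% of all probe sets. They belong to Ccl6 (1417266_at, adjusted p = 0.0406), Ccl9 (1417936_at, 0.0153, and 1448898_at, 0.0409) and Cxcl1 (1457644_s_at, 0.0209, 1419209_at, 0.0309, and 1441855_x_at, 0.0429). Without LP-3, 8 passed, which comprised both probe sets of Ccl6 and Ccl9, those of Ccl2 and Ccl7, and 1 each of Cxcl9 and Cx3cl1, against 4.95% of all probe sets. The 3 Cxcl1 probe sets then had adjusted p values of 0.0618 to 0.0860. Cxcl12, Cxcl14 and Ccl8 had no probe set past the threshold in either fit.

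Against NP/Sed, the exercise groups had no chemokine probe set past the threshold. In 7EX, 0 of 21 passed (0.659% of all probe sets), and 5 had an unadjusted p under 0.05. In 21EX, 0 of 21 passed (2.75% of all), and again 5 had an unadjusted p under 0.05. In MP, 1 of 21 passed and was higher (1.16% of all), in LP 5, all higher (1.67% of all), and in 0PP 3, all higher (1.98% of all). No chemokine probe set passed as lower in these 5 comparisons. With any 1 of NP/Sed-2, NP/Sed-3, 0PP-1, 0PP-2 and 0PP-3 left out, 0 passed in 0PP, and with any 1 of NP/Sed-2, NP/Sed-3, MP-2 and MP-3 left out, 0 passed in MP. In LP, 0 passed without LP-3 (0.797% of all probe sets), 1 without LP-1, NP/Sed-2 or NP/Sed-3, and 9 without LP-2. For arrays other than LP-3 the shares of all probe sets are not given, so these counts do not set the chemokines apart from other genes. Directly between 0PP and LP, 0 of 21 passed (0.884% of all), and 1 had an unadjusted p under 0.05. The median difference of the 21 probe sets from NP/Sed was 0.26 in 7EX, 0.24 in 21EX, 0.27 in MP, 0.41 in LP and 0.31 in 0PP (log2), with medians over all probe sets between -0.02 and 0.01.

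Separation of arrays was also counted. All 3 arrays were above all 3 of NP/Sed at 5 of 21 chemokine probe sets in 7EX (9.10% of all probe sets), 7 in 21EX (12.5%), 11 in MP (9.33%), 9 in LP (7.96%) and 12 in 0PP (10.5%). The 5 comparisons share the NP/Sed arrays, and NP/Sed-3 was the lowest of the 18 arrays at 5 of the 10 genes.

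Ccl6 and Ccl9, CC chemokines of mice that act on monocytes and macrophages through CCR1, were above the controls in all 3 pregnancy groups. Ccl6 (1417266_at) measured 8.42, 8.51 and 8.80 in MP, 8.42, 8.06 and 9.47 in LP, and 8.70, 8.77 and 8.82 in 0PP, against 8.06, 7.68 and 7.53 in NP/Sed (log2). The running groups had means of 8.13 ± 0.12 in 7EX and 8.10 ± 0.075 in 21EX (SD of 3 arrays), and their lowest arrays were below NP/Sed-1. Every pregnancy array lay above every NP/Sed array, narrowly so for LP-2, while both running groups overlapped NP/Sed. In 0PP Ccl6 was 1.01 ± 0.23 above NP/Sed (log2 ± SE, n = 3 arrays each; 2.01-fold, adjusted p = 0.0315). The differences of 0.82 in MP and 0.90 in LP had adjusted p values of 0.0866 and 0.0530. Its dimmer probe set (1420249_s_at) was 0.78 higher in MP, 0.77 in LP and 0.71 in 0PP, with adjusted p values of 0.0902 to 0.0951. The suffix _s_at marks probes shared by several transcripts. In such ventricular RNA, more cells of a type and more RNA per cell cannot be told apart.

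Ccl9 (1417936_at) passed in all 3 pregnancy groups. It measured 7.70, 7.90 and 8.14 in MP, 7.82, 7.54 and 8.49 in LP and 8.08, 7.87 and 7.98 in 0PP, against 7.39, 6.98 and 6.96 in NP/Sed. No pregnancy array reached down to the controls. The differences were 0.81 ± 0.18 in MP (adjusted p = 0.0325), 0.84 ± 0.18 in LP (0.0184) and 0.86 ± 0.18 in 0PP (0.0212), or 1.75-, 1.79- and 1.82-fold. In 7EX it measured 7.34, 7.64 and 7.48, overlapping NP/Sed, and in 21EX 7.46, 7.46 and 7.41, just above it. The differences of 0.38 and 0.34 had adjusted p values of 0.365 and 0.313. The dimmer probe set of Ccl9 (1448898_at) passed in LP (0.90, adjusted p = 0.0228) and 0PP (0.84, 0.0369) and was 0.73 higher in MP (0.0774).

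Without LP-3 these calls were lost in late pregnancy, and more of the 4 probe sets passed in the stages on either side. There the standard errors fell while the differences stayed the same. LP-3 was singled out for high values at these probe sets, so the added calls are not a change of expression between stages. In LP, then 2 arrays, Ccl9 was 0.57 and 0.63 above NP/Sed at its 2 probe sets (adjusted p = 0.0731 and 0.104), and Ccl6 0.49 and 0.43 (0.137 and 0.332). In MP and 0PP the differences of Ccl6 and Ccl9 are those given above, and all 4 probe sets passed in both stages, with adjusted p values of 0.00446 to 0.0227 in MP and 0.00117 to 0.0267 in 0PP. They were all 4 of the 21 that passed in MP (1.56% of all probe sets without LP-3) and 4 of the 7 in 0PP (2.43%). The standard error of Ccl6 (1417266_at) in 0PP was 0.13 without LP-3 and 0.23 with it.

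**Figure D2:**
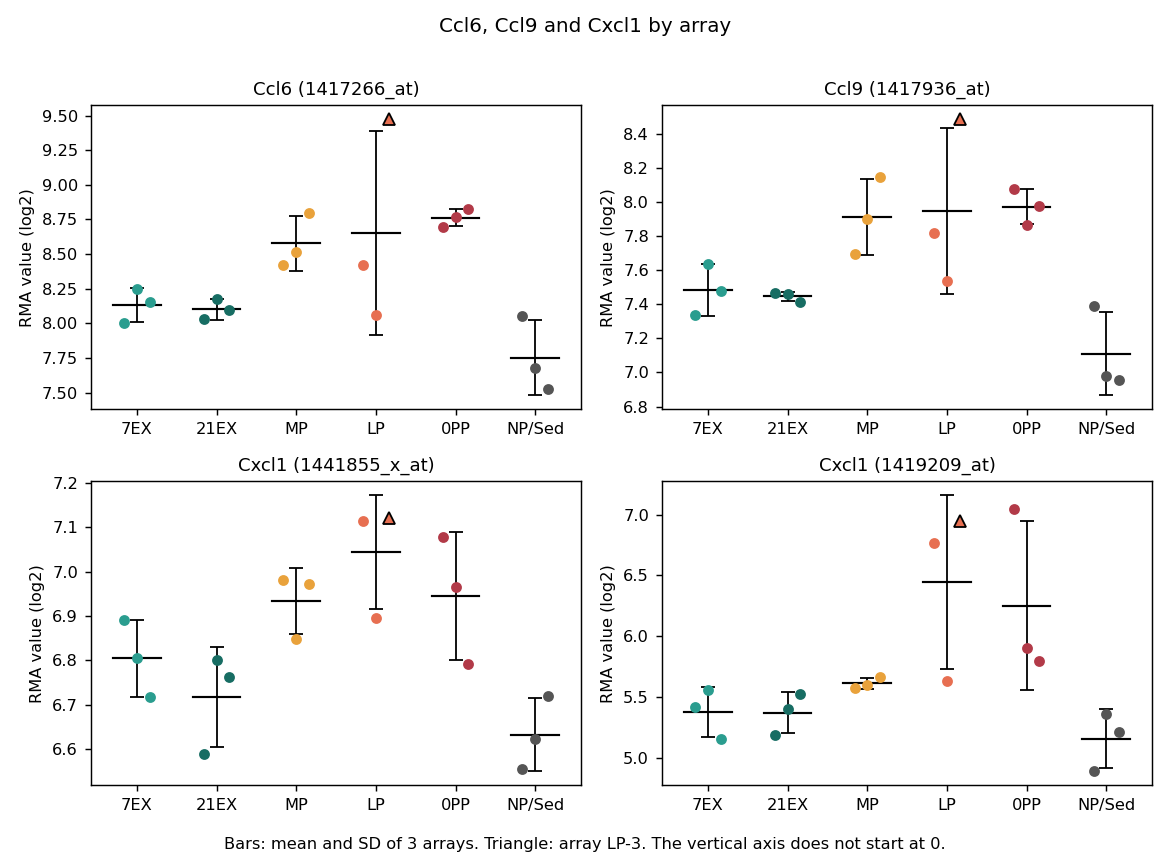
RMA values (log2, vertical axis) of Ccl6, Ccl9 and 2 probe sets of Cxcl1 on each array by group (horizontal axis), with bars for the mean and SD of 3 arrays and a triangle for LP-3. All 3 arrays of MP, LP and 0PP lie above all 3 NP/Sed arrays in each panel, and the 3 0PP arrays of Ccl6 fall between 8.70 and 8.82.

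Cxcl1, the neutrophil chemokine that signals through CXCR2, rose in late pregnancy at all 3 of its probe sets. At 1419209_at it measured 6.77, 5.63 and 6.94 in LP, against 4.89, 5.37 and 5.22 in NP/Sed, a difference of 1.29 ± 0.29 (2.44-fold, adjusted p = 0.0279). LP-1 and LP-3 were both high, and LP-2 lay nearer to the controls but above all 3. The differences at 1457644_s_at and 1441855_x_at were 0.89 ± 0.18 (adjusted p = 0.0142) and 0.41 ± 0.09 (0.0252). The suffix _x_at marks a probe set with probes that can match other transcripts, and the size of the change differed between the 3 probe sets. In 0PP, 1419209_at measured 7.05, 5.91 and 5.80, with 0PP-1 the highest of all 18 arrays, and the difference of 1.09 had an adjusted p of 0.0553. In MP it measured 5.58, 5.60 and 5.67, above all 3 controls, with a difference of 0.46 (adjusted p = 0.528). Both running groups overlapped NP/Sed at every Cxcl1 probe set, with values at 1419209_at of 5.42, 5.56 and 5.15 in 7EX and 5.19, 5.41 and 5.53 in 21EX. Without LP-3 the LP difference at 1419209_at was 1.04 (adjusted p = 0.136), and the 0PP difference passed (adjusted p = 0.0431).

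Ccl2, Ccl7 and Ccl8 are monocyte chemoattractant proteins, and Ccl2 draws monocytes out of the blood through CCR2. Ccl2 measured 6.30, 7.68 and 6.44 in 0PP, against 5.70, 5.53 and 5.81 in NP/Sed. All 3 postpartum arrays were above the controls, 0PP-2 by far. In LP it measured 5.67, 5.70 and 7.54, so LP-1 and LP-2 sat among the controls and LP-3 beside 0PP-2. The 7EX arrays (6.01, 6.18 and 5.89) were also above the controls, and 21EX (6.08, 5.72 and 5.96) and MP (5.67, 6.10 and 5.80) overlapped them. The 0PP difference of 1.13 ± 0.37 (2.19-fold) had an adjusted p of 0.112, and the LP difference of 0.62 one of 0.499.

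Ccl7 also had 0PP and LP first and NP/Sed last. It measured 6.20, 6.28 and 5.70 in 0PP and 5.37, 4.95 and 7.29 in LP, against 4.88, 4.93 and 4.63 in NP/Sed. In MP it measured 5.28, 5.52 and 5.38, in 7EX 5.38, 5.46 and 5.41, and in 21EX 5.66, 5.12 and 5.24. NP/Sed was thus below every array of the 5 other groups. The difference from NP/Sed was 1.25 ± 0.36 in 0PP (2.37-fold, adjusted p = 0.0773) and 1.05 in LP (0.180), and between 0.53 and 0.61 in 7EX, 21EX and MP (0.468 to 0.524).

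With LP-3 left out, Ccl2 and Ccl7 passed in 0PP against NP/Sed, at unchanged differences (adjusted p = 0.0211 and 0.000906). The LP differences fell to 0.01 for Ccl2 and 0.34 for Ccl7 (adjusted p = 0.995 and 0.456). Set directly against LP, 0PP was then higher by 0.90 ± 0.17 for Ccl7 (adjusted p = 0.0235, with 0.477% of all probe sets passing). For Ccl2 it was higher by 1.12 ± 0.27 (0.0716). With LP-3 the differences were 0.19 and 0.51 (0.918 and 0.715). Ccl7 and Ccl2 had the largest gaps between LP-3 and the other LP arrays, 2.13 and 1.85. Leaving LP-3 out therefore widened these differences by the choice itself. The passing call of Ccl7 is a description and not a test of a rise at birth.

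Ccl8 did not pass in any comparison, with or without LP-3. It measured 6.39, 6.62 and 6.61 in MP, 6.55, 6.28 and 7.51 in LP and 6.46, 6.44 and 6.44 in 0PP, against 6.19, 6.16 and 5.78 in NP/Sed. All 9 pregnancy arrays lay above the controls, while 7EX (6.38, 6.96 and 6.11) and 21EX (6.32, 6.19 and 6.40) overlapped them. Its largest difference, 0.74 in LP, had an adjusted p of 0.131.

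**Figure D3:**
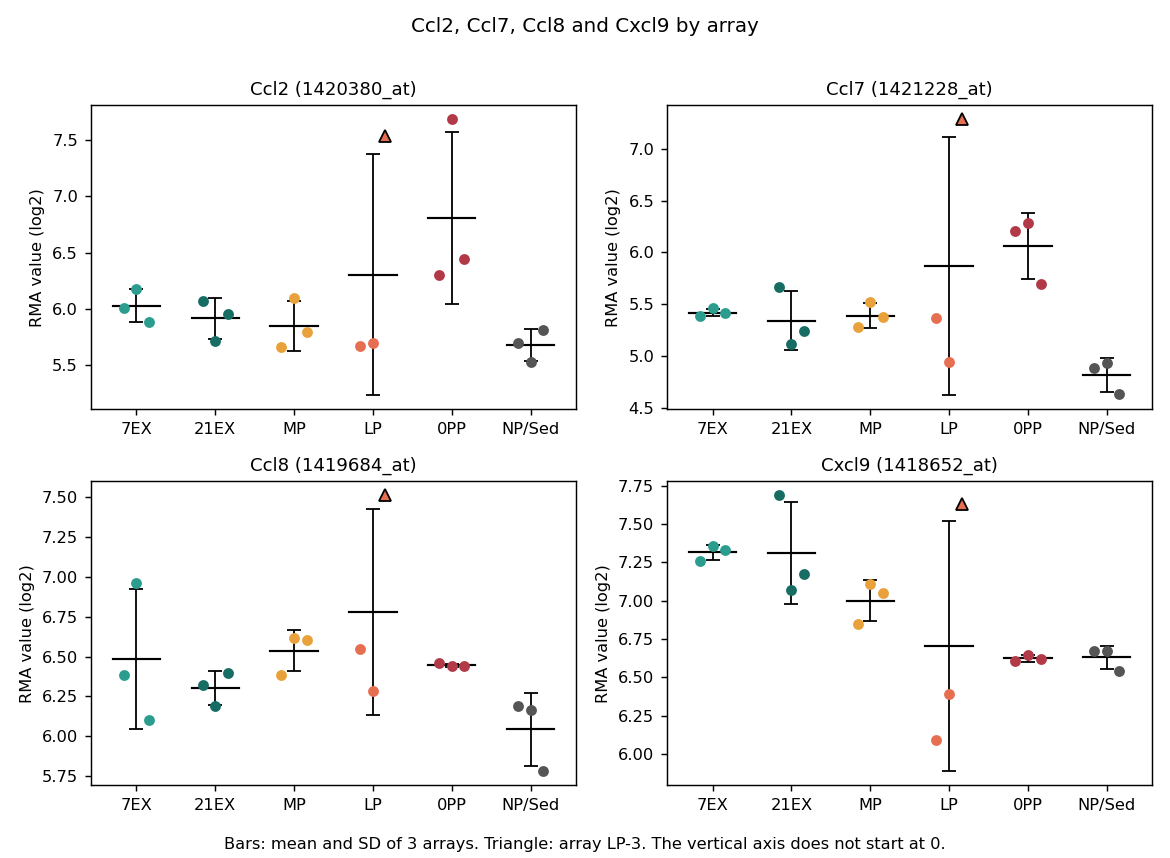
RMA values (log2, vertical axis) of Ccl2, Ccl7, Ccl8 and Cxcl9 on each array by group (horizontal axis), with bars for the mean and SD of 3 arrays and a triangle for LP-3. LP-3 is the highest array for Ccl7 and Ccl8 and far from LP-1 and LP-2 in all 4 panels, and Cxcl9 is high in 7EX and 21EX and low in 0PP and NP/Sed.

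**Figure D4:**
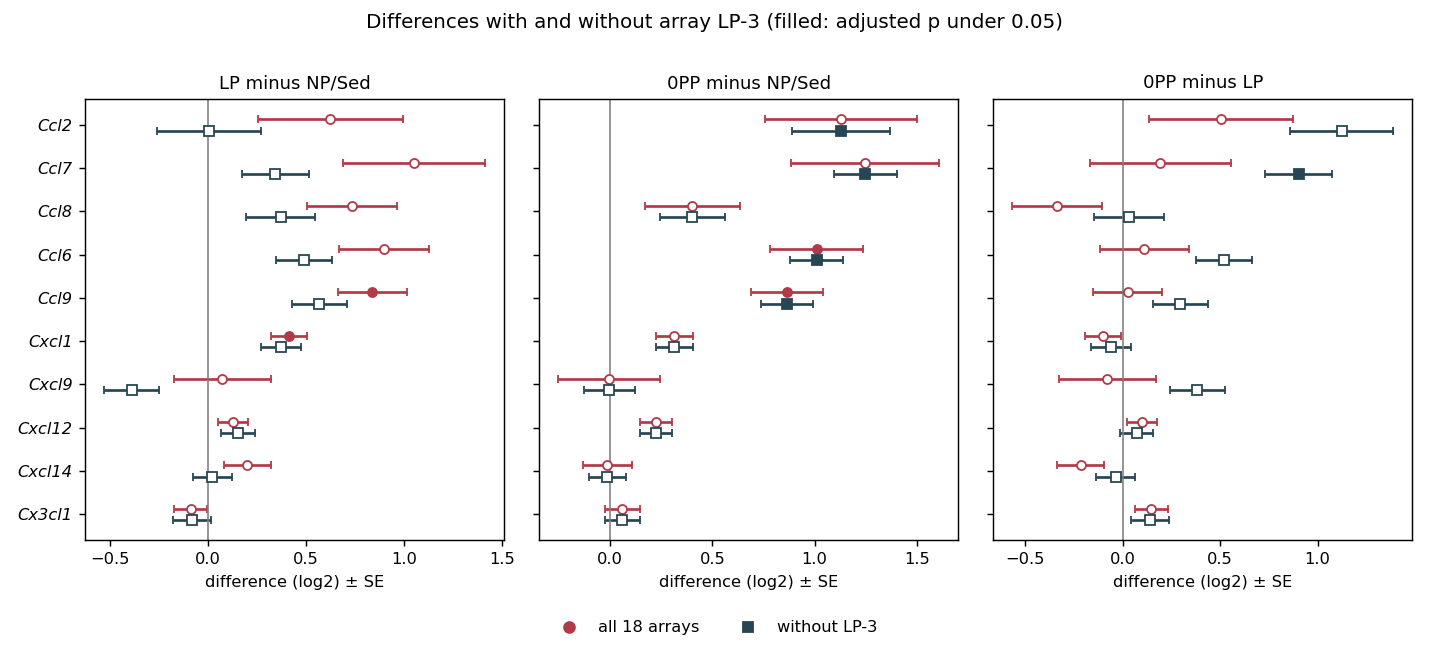
Difference (log2, horizontal axis, bars ± SE) of the probe set of highest mean of each chemokine in LP and 0PP against NP/Sed and in 0PP against LP, with all 18 arrays (circles) and without LP-3 (squares), filled where the adjusted p is under 0.05. In LP against NP/Sed the filled points are Ccl9 and Cxcl1 with all arrays and none without LP-3, and in 0PP against NP/Sed they are Ccl6 and Ccl9 with all arrays, joined by Ccl2 and Ccl7 without LP-3.

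Cxcl9, the interferon-gamma-induced ligand of CXCR3, had its highest group means in the running groups. It measured 7.26, 7.36 and 7.33 in 7EX and 7.69, 7.07 and 7.17 in 21EX, against 6.67, 6.67 and 6.54 in NP/Sed (1418652_at). Every running array was above every control. The MP arrays (6.85, 7.11 and 7.05) also lay above the controls and overlapped 21EX, the 0PP arrays (6.61, 6.65 and 6.62) lay among the controls, and the LP arrays measured 6.09, 6.39 and 7.63. LP-1 was the lowest and LP-3 the second highest of all 18. The differences of 0.69 ± 0.25 in 7EX and 0.68 ± 0.25 in 21EX had adjusted p values of 0.218 and 0.136, and without LP-3, at the same differences, of 0.0205 and 0.0152 (0.868% and 3.21% of all probe sets then passed). The dimmer probe set 1456907_at, with a mean of 4.42, was 0.26 and 0.29 higher in 7EX and 21EX (0.568 and 0.367).

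Cxcl12, whose receptors are CXCR4 and the atypical receptor ACKR3, varied little. Its brightest probe set (1417574_at) measured 10.29 to 10.40 in 7EX, 10.34 to 10.44 in 21EX, 10.35 to 10.55 in MP, 10.28 to 10.38 in LP and 10.36 to 10.54 in 0PP, against 10.12 to 10.30 in NP/Sed. The 21EX, MP and 0PP arrays lay above all controls, by a mean of 0.19, 0.27 and 0.22, with adjusted p values of 0.181, 0.0921 and 0.130. The second probe set (1448823_at) was highest in 21EX, 0.40 above NP/Sed (adjusted p = 0.0668), and the third was dim, with a mean of 4.28.

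Cxcl14 had no probe set past the threshold. At 1418456_a_at its arrays lay between 6.40 and 6.81 apart from LP-3 at 7.18, and at 1418457_at between 4.63 and 5.71 apart from LP-3 at 6.50. LP was 0.20 and 0.54 above NP/Sed with LP-3 (adjusted p = 0.509 and 0.431) and 0.02 and 0.08 above it without.

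Cx3cl1, or fractalkine, the ligand of CX3CR1, is cut from the membrane by the proteases ADAM10 and ADAM17. At 1415803_at it measured 5.82, 5.83 and 6.04 in 7EX and 6.01, 5.93 and 5.89 in 21EX, against 5.50, 5.59 and 5.68 in NP/Sed. All running arrays were above the controls, with differences of 0.31 and 0.35 (adjusted p = 0.277 and 0.127). The brighter probe set 1415804_at did not show this order, with 5.69 to 5.90 in the 6 running arrays and 5.70 to 5.88 in NP/Sed. The other 2 probe sets were dim, with means of 3.73 and 3.46.

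Pregnancy and running were then compared directly, as the mean of MP, LP and 0PP minus the mean of 7EX and 21EX, so that the NP/Sed means do not enter, though the spread of all 6 groups does. Of the 21 chemokine probe sets, 3 were higher in pregnancy and 1 was lower, against 2.96% of all probe sets passing in either direction. Ccl9 (1417936_at) averaged 7.95 in pregnancy and 7.47 in running, a difference of 0.48 ± 0.11 (adjusted p = 0.0244). Cxcl1 averaged 6.10 and 5.38 at 1419209_at (0.73 ± 0.19, adjusted p = 0.0404) and 6.24 and 5.77 at 1457644_s_at (0.47 ± 0.12, 0.0330). Cx3cl1 at 1415803_at averaged 5.56 in pregnancy and 5.92 in running, a difference of -0.36 ± 0.08 (0.0167). The 9 pregnancy arrays did not overlap the 6 running arrays at 2 of the 21 probe sets, all above for Cxcl1 1419209_at and all below for Cx3cl1 1415803_at, against 0.817% of all probe sets. Leaving out 7EX-3 left 0 of the 21 past the threshold, and leaving out LP-2 gave 8, with the shares of all probe sets not given. Of the 26 alternatives to this fit, Cxcl1 passed in 11 at 1419209_at and in 14 at 1457644_s_at, Ccl9 in 18 and Cx3cl1 in 24.

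Ccl6 and Cxcl9 lay near the threshold in opposite directions. Ccl6 (1417266_at) averaged 8.66 in pregnancy and 8.12 in running (0.55 ± 0.15, adjusted p = 0.0515), and Cxcl9 (1418652_at) 6.78 and 7.31 (-0.54 ± 0.16, 0.0810). Without LP-3, left out after its values were seen, both passed, with differences of 0.41 (adjusted p = 0.0118) and -0.69 (0.000113). Ccl9 at 0.39 (0.0150) and Cx3cl1 at -0.40 (0.00441) passed beside them, or 4 of 21 against 2.66% of all probe sets. The 2 Cxcl1 probe sets did not pass without LP-3 (0.0609 and 0.0702). The differences of Ccl2 and Ccl7, 0.35 and 0.39, had 95% intervals from -0.15 to 0.85 and from -0.10 to 0.88. With the 3′ minus 5′ signal of beta-actin, a measure of RNA integrity, as a covariate, none of the 21 passed, nor did any in MP or 0PP against NP/Sed, while 5 still passed in LP. Some of these differences stayed near their size and others did not. In pregnancy against running the difference was then 0.44 for Ccl9 (1417936_at, adjusted p = 0.564) and -0.39 for Cx3cl1 (1415803_at, 0.432), but 0.10 and 0.12 for Cxcl1 (1419209_at and 1457644_s_at, 0.955 and 0.897). Against NP/Sed it was 0.77 for Ccl9 (1417936_at) in MP (0.223), and in 0PP 0.84 for Ccl9 (0.0590) and 0.94 for Ccl6 (1417266_at, 0.0906). That signal was 1.17 to 1.35 on the pregnancy arrays and 1.05 to 1.22 on the running arrays. Its part in the differences was not tested beyond this covariate. The share of all probe sets that passed with the covariate is not given, so these counts do not set the chemokines apart from other genes.

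**Figure D5:**
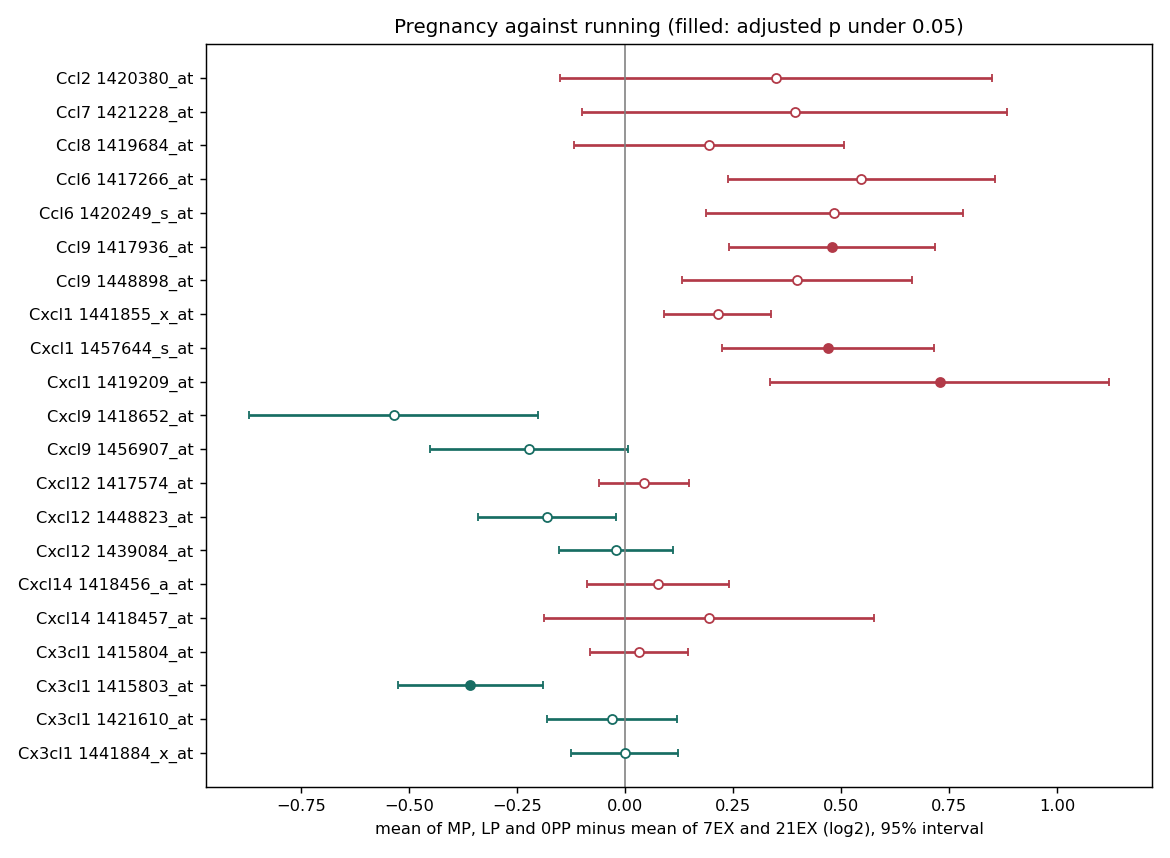
Mean of MP, LP and 0PP minus mean of 7EX and 21EX (log2, horizontal axis) for each of the 21 chemokine probe sets (vertical axis), with 95% intervals, filled where the adjusted p is under 0.05. The intervals of all 7 probe sets of Ccl6, Ccl9 and Cxcl1 lie above 0, and those of Cxcl9 1418652_at (-0.54), Cx3cl1 1415803_at (-0.36) and Cxcl12 1448823_at (-0.18) lie below 0.

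The order of group means differed between the chemokines. Both probe sets of Ccl9, all 3 of Cxcl1 and both of Ccl6 had the 3 pregnancy groups first, then 7EX, then 21EX, then NP/Sed. At Ccl9 1448898_at and at Cxcl1 1441855_x_at and 1457644_s_at, all neighbours in this order overlapped. Ccl2 had 0PP and LP first and NP/Sed last, with all neighbours in the order overlapping. For Ccl6 and Ccl9 (the brighter probe sets) all MP arrays were above all 7EX arrays, whereas 0PP, LP and MP overlapped one another. Cxcl9 (1418652_at) ran 7EX, 21EX, MP, LP, NP/Sed and 0PP, with every neighbour overlapping.

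The genes whose values were most like those of Ccl6 and Ccl9 over the 18 arrays, among 18192 other genes by the probe set of highest mean, were each other, with a Pearson r of 0.975 (Spearman 0.950). The next were Gda, a guanine deaminase (0.932 with both), then Cyb561 for Ccl6 (0.927) and Lyve1, a hyaluronan receptor of resident macrophages and lymphatic endothelium, for Ccl9 (0.929). Without LP-3 the correlation of Ccl6 with Ccl9 was 0.970 and that of Ccl9 with Lyve1 0.950. For Cxcl1 (1441855_x_at) the nearest were Gnai1, Adamts1 and Tbx3, with r of 0.791 to 0.796. These values are descriptions over arrays that share the 6 groups and 1 normalization.

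Markers of macrophages and of some other cell types also changed, but not always in the groups where chemokine probe sets passed. Of 11 monocyte and macrophage markers, 3 were higher in 7EX (0.797% of all genes by the probe set of highest mean), 4 in 21EX (2.67%), 7 in MP (1.15%), 0 in LP (2.36%) and 3 in 0PP (2.70%). Their mean level was 8.02 to 8.12 in 7EX, 8.02 to 8.17 in 21EX, 8.04 to 8.25 in MP, 7.84 to 8.21 in LP and 8.01 to 8.13 in 0PP, against 7.65 to 7.85 in NP/Sed. Without LP-3, the numbers of these 11 that were higher were 3, 6, 7, 0 and 4 in the same order of groups. The shares of all probe sets were then 0.868%, 3.21%, 1.56%, 0.797% and 2.43%. Of 6 resident cardiac macrophage markers, 0 were higher in 7EX, 2 in 21EX, 4 in MP, 3 in LP and 4 in 0PP. Lyve1 was 0.97, 0.92 and 1.02 above NP/Sed in MP, LP and 0PP and Cd163 0.61, 0.89 and 0.45. In pregnancy against running 3 of these 6 were higher (4.08% of all genes), Lyve1 by 0.66, Cd163 by 0.62 and Cbr2 by 0.21. Without LP-3, Lyve1 and Cd163 alone passed in LP and in pregnancy against running. Timd4 was dim throughout, with a mean of 3.64. Of 4 blood monocyte markers, 0 passed in any comparison, and without LP-3 Plac8 passed as higher in 21EX and MP. Of 8 endothelial markers, 1 was higher in 7EX, 2 in LP and 3 in 0PP, with 0 in LP and 3 in 0PP without LP-3. Their mean level was 8.60 to 8.80 in LP and 8.80 to 8.85 in 0PP, against 8.47 to 8.75 in NP/Sed. Of 4 erythroid markers, 2 were higher in MP and 1 in 0PP, with mean levels of 5.10 to 5.66 in MP and 4.87 to 4.93 in 0PP, against 4.66 to 4.73 in NP/Sed. Of 5 adipocyte markers, 1 was higher in MP (4.46 to 5.05, against 3.95 to 4.24 in NP/Sed), and of 8 fibroblast markers 1 in 21EX and 1 in 0PP. In 0PP against LP, 2 fibroblast markers and 1 erythroid marker were higher (1.33% of all genes). Without LP-3 these were 0 and 1. In pregnancy against running 1 erythroid and 1 adipocyte marker were higher, and 1 endothelial, 2 fibroblast, 1 mast cell and 1 ventricular cardiomyocyte marker were lower. Of 5 atrial cardiomyocyte markers, 0 passed in any comparison, but their mean level varied between pools although the atria had been trimmed away. It was 8.2 to 9.0 in 7EX, 8.0 to 9.3 in 21EX and 8.1 to 9.4 in MP. In LP it was 7.8 to 9.0 and in 0PP 8.3 to 9.2, against 7.6 to 8.6 in NP/Sed. The part of these cell types in the chemokine differences was not tested. Neutrophil markers, of 8 measured, had no gene past the threshold by limma in any comparison, with 0 to 2 at an unadjusted p under 0.05, and their mean level was 4.82 to 5.34 in LP and 4.80 to 5.03 in NP/Sed.

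Few of the other chemokines passed, and no receptor did so at its brightest probe set in any of the 7 comparisons. Of 25 further ligands measured, Xcl1 was 0.31 lower in LP than in NP/Sed (adjusted p = 0.0359) and lower in pregnancy than in running (-0.19, 0.0332). Its probe set was dim, with a mean of 3.64. Ppbp, a platelet chemokine, rose by 0.96 in 0PP (0.0445). It measured 5.06, 5.88 and 5.20 there, against 5.18, 4.16 and 3.92 in NP/Sed, so the arrays overlapped (F-test adjusted p = 0.0807). In 7EX, 21EX and MP against NP/Sed and in 0PP against LP (1.33% of all genes) none of the 25 passed. The median of the 25 was between -0.03 and 0.11 in the 7 comparisons. Ccl4 was 0.32 higher in MP (adjusted p = 0.0716). Ccl12, a further neighbour of Ccl2 and Ccl8 that was named after its values were seen, measured 7.64, 6.98 and 6.21 in 0PP, against 5.58, 5.74 and 5.40 in NP/Sed. Its differences of 1.37 in 0PP and 1.06 in LP had adjusted p values of 0.0611 and 0.188, and that in 0PP was larger than the 0PP difference of any of the 10 chemokines. Without LP-3 it passed, as did Cxcl10 in 21EX, while Xcl1 no longer did. Of 16 chemokine receptors none passed in any of the 7 comparisons by limma, and 1 to 3 had an unadjusted p under 0.05 in each. Cxcr4, the receptor of Cxcl12, passed the F-test alone (adjusted p = 0.0475), with 4.44, 4.54 and 4.40 in MP and 5.44, 5.06 and 5.22 in 0PP, against 5.44, 4.54 and 4.79 in NP/Sed. Cx3cr1 and Cxcr3, the receptors of Cx3cl1 and Cxcl9, had F-test adjusted p values of 0.269 and 0.129. Of 5 atypical receptors, which bind chemokines without G protein signaling, none passed by limma at its brightest probe set (0 to 4 at an unadjusted p under 0.05). A dimmer probe set of Ackr2, with a mean of 3.75, was 0.45 higher in 7EX (adjusted p = 0.0483), and Ackr3 was 0.39 higher in 0PP (adjusted p = 0.0735).

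Genes that act before and after the chemokines changed singly. Beside the calls below, the shares of all genes passing by the probe set of highest mean were as follows. Against NP/Sed they were 0.797% in 7EX, 2.67% in 21EX, 1.15% in MP, 2.36% in LP and 2.70% in 0PP. In 0PP against LP the share was 1.33%, and in pregnancy against running 4.08%. Among 15 leukocyte adhesion genes, Vcam1, the endothelial ligand of monocyte integrins, measured 7.97, 7.63 and 8.40 in LP and 8.40, 8.32 and 7.91 in 0PP, against 7.32, 7.39 and 7.00 in NP/Sed. It was 0.76 higher in LP (adjusted p = 0.0298), 0.98 higher in 0PP (0.0117) and 0.42 higher in pregnancy than in running (0.0463). Itgb2, the leukocyte beta integrin, was 0.71 higher in MP (0.0266) and 0.69 higher in 0PP (0.0272). Of 12 NF-κB genes, Nfkbiz, an inducible cofactor, was 0.81 higher in LP (0.0192) and 1.03 higher in 0PP (0.00813), Nfkbia, the inhibitor of NF-κB, 0.57 higher in MP (0.0298), and Relb 0.55 higher in 21EX (0.0228). In pregnancy against running Nfkbia was higher (0.38, adjusted p = 0.00962) and Relb lower (-0.41, 0.00445). None of 14 cytokines that induce chemokines passed in any comparison by limma, 1 to 4 had an unadjusted p under 0.05, and the smallest F-test p was that of Csf1 (F-test adjusted p = 0.0505). Of 16 interferon-gamma response genes 1 passed, the receptor chain Ifngr2, lower by 0.80 in MP (-0.80, adjusted p = 0.0271). Without LP-3, Gbp2, Psmb8, Psmb9 and Tap1 were also higher in MP. Of 23 signaling genes downstream of the receptors, Arrb1 was higher in 21EX and 0PP (0.52 and 0.40), and Rock1 in 21EX and Rgs2 in 0PP were lower (-0.51 and -0.55). A dimmer probe set of Rgs2 was lower in 7EX (-0.79, adjusted p = 0.0260) as well as in 0PP (-0.62, 0.0408). The brightest one did not pass in 7EX. Of 11 enzymes that process chemokines, Mmp3 was 1.37 higher in LP (0.0159) and Mmp2 lower there (-0.42, 0.0218) and in pregnancy against running (-0.26, 0.0179), Ctss was 0.63 higher in MP (0.0283), and Adam17 was 0.32 higher in 0PP than in LP (0.0436). Once LP-3 was left out, Vcam1 and Nfkbiz passed in 0PP but not in LP, while Vcam1 no longer passed in pregnancy against running, nor Adam17 in 0PP against LP. With all arrays, a second probe set of Adam17 was lower in 21EX than in NP/Sed (-0.53, 0.0212), unlike its brightest (0.24, 0.0811). Likewise a dimmer probe set of Jam2, a junctional adhesion protein, was lower in 7EX, 21EX, MP and 0PP (-0.83, -0.85, -0.85 and -0.85), while its brightest did not pass there.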

How the data were processed

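Left ventricular RNA of 6 groups of 3 arrays was measured on Affymetrix mouse expression arrays. The log2 values were deposited by the authors after RMA (background correction, quantile normalization and summary of probes into probe sets), and were not normalized again. Tests ran over 45037 probe sets, without the 64 controls of the array. Genes come from the platform annotation: 932 probe sets carry several genes and 9160 none.

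A linear model over the 6 groups (12 residual degrees of freedom) was fitted with limma 3.58.1 in R 4.3.3, with empirical Bayes moderation and Benjamini-Hochberg adjustment over all probe sets tested. Adjusted p values are those of this fit. The methods of the study used Cyber-T with posterior probabilities and a 75% change. Here Cyber-T with Benjamini-Hochberg adjustment and the fold limit were alternatives. The script was tested on simulated data.

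Every probe set of the listed chemokines is reported. Other genes are the 3 most correlated with a member past the F-test and at most 4 per list, by the smallest F-test p, with exceptions named. Members and lists were chosen with earlier results of these data known. Left out in turn were all 18 arrays. The number of arrays limits the precision. Promoter sequences are from RefSeq.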

Additional observations from a re-analysis of the deposited data

Results flagged for a closer look

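The effect of pregnancy and the effect of running, which share the NP/Sed arrays, differed by a direct test at 4 chemokine probe sets. The mean of MP, LP and 0PP minus the mean of 7EX and 21EX was 0.48 (log2) at Ccl9 1417936_at, 0.47 at Cxcl1 1457644_s_at, 0.73 at Cxcl1 1419209_at and -0.36 at Cx3cl1 1415803_at, with adjusted p values of 0.0244, 0.0330, 0.0404 and 0.0167. Without LP-3, and with the replicate number as a block, neither Cxcl1 probe set passed. Of the 26 alternatives run, Cxcl1 1419209_at passed in 11 (differences of 0.10 to 0.86), Cxcl1 1457644_s_at in 14 (0.12 to 0.56), Ccl9 in 18 (0.39 to 0.55) and Cx3cl1 in 24 (-0.40 to -0.31). The 9 pregnancy arrays were all above the 6 running arrays at Cxcl1 1419209_at and all below them at Cx3cl1 1415803_at. The other 3 probe sets of Cx3cl1 had differences of 0.03, -0.03 and -0.00.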

How the results depend on the processing

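Counts are of 21 chemokine probe sets past the threshold, in the order 7EX, 21EX, MP, LP and 0PP against NP/Sed, 0PP against LP, and pregnancy against running. They were 0, 0, 1, 5, 3, 0 and 4. Leaving out 1 array at a time gave 0 to 1, 0 to 1, 0 to 4, 0 to 9, 0 to 7, 0 to 1 and 0 to 8, and 1 to 8 for the F-test (6 with all arrays), whose alternatives were added after seeing the data. Fitting only the groups compared gave 2 in 7EX, 2 in MP, 0 in LP and 5 in 0PP. Cyber-T gave 2 in 7EX, 4 in 21EX, 8 in MP, 8 in 0PP and 8 in pregnancy against running. An intensity trend gave 1 in 21EX and 2 in MP, a mean of at least 5 gave 1 in 21EX and 6 in 0PP, and median centring 6 in 0PP. The fold limit left 0 in MP and 0 in pregnancy against running. The actin 3′ minus 5′ covariate left 0 in MP, 0 in 0PP, 0 in pregnancy against running and 2 in the F-test. The mean of a gene's probe sets raised the genes passing in pregnancy against running to 3, against 1 by the brightest probe set. All other counts stayed within 1.5 times, except 1 with the replicate block, given next. Apart from the fit without LP-3, shares of all probe sets under the alternatives are not given. The counts thus do not set the chemokines apart from other genes. The causes were not tested. Of 3794 differences of single probe sets under the alternatives, 85 lost and 78 gained the threshold and 0 reversed past it.

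Replicate numbers did not pair the arrays: same-numbered arrays of different groups had a mean correlation of deviations of -0.0272 over 45 pairs, 7 of them over 0.1, and 6 of 18 arrays correlated best with their own number. With the number as a replicate block, 2 probe sets passed in pregnancy against running, 4 in the F-test, and 0, 0, 1, 5, 3 and 0 in the other 6 comparisons. At a mean below 5, as for 4 of the 21 probe sets, low signal limits what can be seen.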
